A study of Homo sapiens with 6 samples.

Results

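Ribosome biogenesis factors are the proteins that cut, modify and fold the precursor of ribosomal RNA and assemble it with ribosomal proteins. RNA polymerase I makes one long transcript in the nucleolus; the small-subunit processome, built around the U3 snoRNP, matures its small-subunit part, pre-60S factors mature its large-subunit parts, and box C/D and box H/ACA snoRNPs guide methylation and pseudouridylation. Nuclear export and cytoplasmic steps then complete the 40S and 60S subunits. Leukaemia cells that divide fast are known for large nucleoli and a high demand for these factors.

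A list of 55 such genes was chosen by symbol, with a mean of at least 10 normalized counts over 6 libraries. All 55 were present and passed that minimum, the lowest being PWP2 with a mean of 95.0, among 13465 genes tested of 17202 in the table. They were divided by main role into 20 members of the small-subunit processome, 5 pre-40S factors, 19 large-subunit factors, 8 snoRNP proteins and 3 multifunctional nucleolar proteins. The libraries came from DND41, an established human T-cell acute lymphoblastic leukaemia line grown in RPMI with serum. One group of 3 libraries was treated with MB1-47, which the series title calls a mitochondrial uncoupling drug, at 4 mM as the labels write it, and the other group of 3 with its solvent DMSO, both for 24 h. Libraries were strand-specific, and no genotype difference or further agent is given for either group. The labels speak of plating in triplicates, and whether these were independent cultures is not given. The p-values therefore refer to library-to-library spread, some or all of which may be technical.

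After MB1-47, 53 of the 55 genes fell, and no gene of the list rose (limma with Benjamini-Hochberg adjustment over all genes tested, threshold 0.05). Of all genes tested, 19.8% were called lower and 18.3% higher, 38.1% in all. These were 2667 genes lower and 2458 higher, a split that became 2063 lower and 3335 higher when each library was scaled to the same total. The median log2 fold change of the 55 genes was -1.24, with values between -2.14 for MRTO4 and -0.31 for UTP3, while the median of all genes tested was 0.02. For 33 of the 55 genes the log2 fold change was -1 or less with a call, a result that 5.99% of all genes tested had. In 53 of the 55 genes every MB1-47 library lay below every DMSO library, as in 25.2% of all genes tested. The summed values of the 55 genes made up 0.473% ± 0.0151 of a library after MB1-47 and 0.976% ± 0.0173 after DMSO (SD, n = 3 each). These levels are relative to the rest of each library, so fewer cells of one kind and less RNA per cell cannot be told apart.

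**Figure D1:**
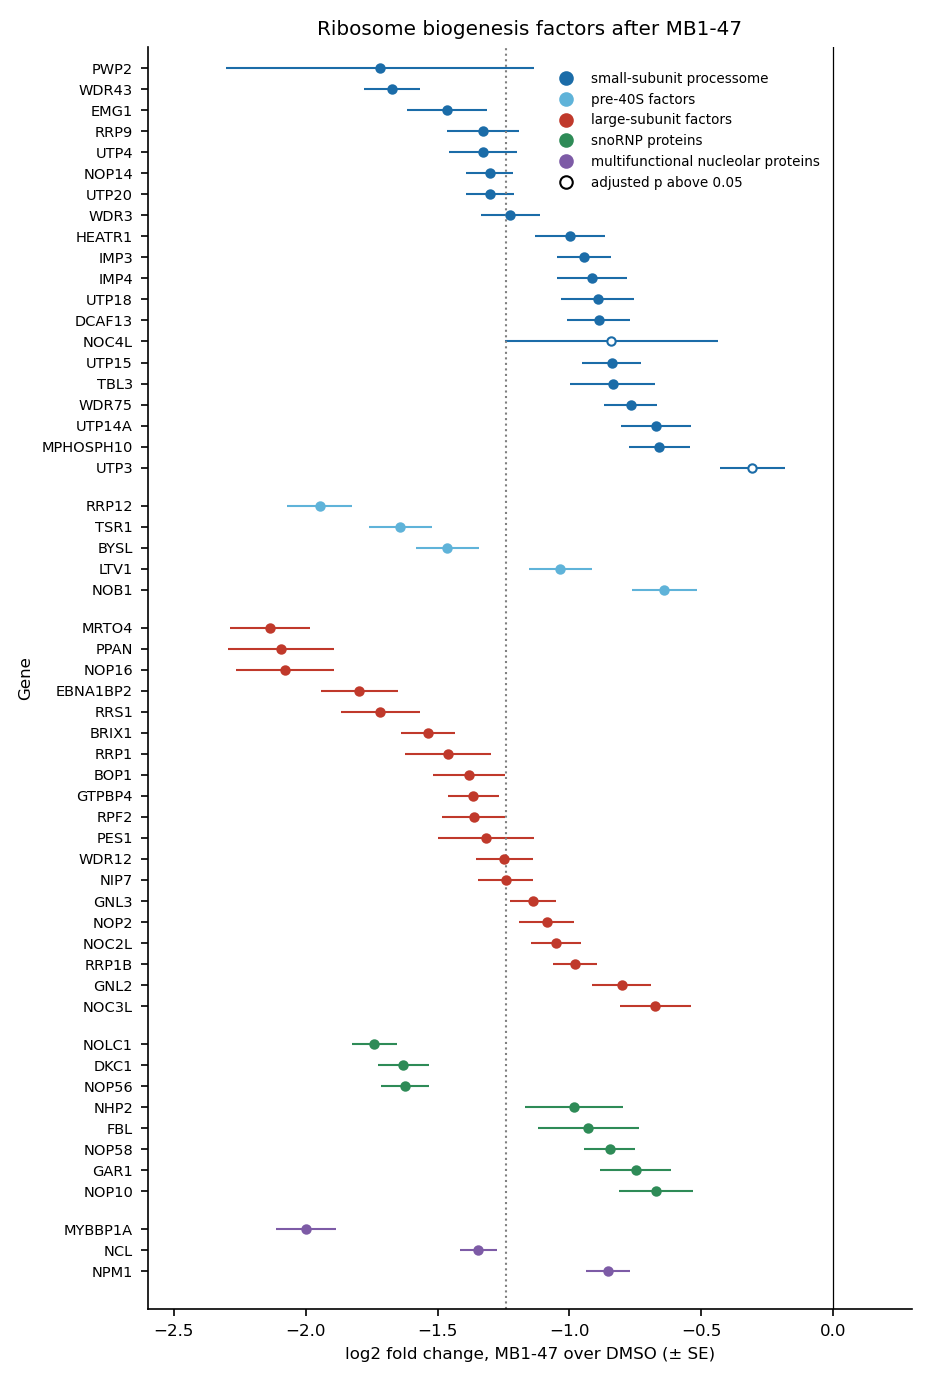
Log2 fold change of MB1-47 over DMSO (x axis) for each of the 55 genes (y axis), on the log2(value + 1) scale, with bars of 1 standard error (n = 3 libraries a group) and colours for the role. All points lie left of 0, the dotted line marks the median of -1.24, and the open points are UTP3 and NOC4L, which were not called.

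Pearson correlations of log2 values were between 0.955 and 0.968 within groups and between 0.927 and 0.948 between groups. Normalized values summed to between 28323706 and 32667526 in a library, and read depth is unknown. T-cell markers were present, with CD3E at a mean of 10262 normalized counts after MB1-47 and 11497 after DMSO, but CD2 was at 33.8 after MB1-47 and 49.2 after DMSO, and CD5 at 17.8 after MB1-47 and 9.31 after DMSO. The summed level of the 9 T-cell markers was 26480 to 30588 normalized counts after MB1-47 and 48144 to 52235 after DMSO, and its part in the results below was not tested. Of the other lists, 2 of 5 myeloid, 1 of 3 erythroid and 2 of 5 epithelial or stromal markers were in the table. Of the B-cell markers, CD79A was at a mean of 6826 normalized counts after MB1-47 and 16526 after DMSO, and PAX5 was at 16.9 after MB1-47 and 13.3 after DMSO. The myeloid sum was 3.22 to 11.2 after MB1-47 and 0 to 22.9 after DMSO, with CD14 at 0 in all MB1-47 libraries. The single erythroid marker was at 17.3 to 31.7 after MB1-47 and 8.56 to 26.7 after DMSO, and the epithelial or stromal sum was 8.89 to 71.3 after MB1-47 and 1.63 to 40.7 after DMSO.

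The small-subunit processome folds and cleaves the 5′ part of the ribosomal RNA precursor. Of its 20 genes, 18 fell and 8 had a log2 fold change of -1 or less, and the class median was -0.93. Its genes made up 0.110% ± 0.00399 of a library after MB1-47 and 0.210% ± 0.00401 after DMSO (SD, n = 3 each). All 5 listed genes of UTP-A, the subcomplex that binds the transcript first, fell, with a median of -0.997. NOL11, a UTP-A gene outside the list, fell with a log2 fold change of -0.99 ± 0.09 (SE). All 4 listed genes of UTP-B, the next subcomplex to join, fell with a median of -1.06. WDR36 and UTP6, UTP-B genes outside the list, fell less, with log2 fold changes of -0.58 ± 0.08 and -0.39 ± 0.11 (SE). The call of UTP6 was lost in several alternatives, such as libraries scaled to the same total (limma adjusted p = 0.059). The 3 genes of the MPP10 complex fell with a median of -0.91.

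WDR43, a UTP-A protein, had 1777, 1631 and 1733 normalized counts in the MB1-47 libraries, against 5692, 5997 and 4775 in the DMSO libraries. Every MB1-47 library was well below every DMSO library, and the log2 fold change was -1.67 ± 0.11 (SE; limma adjusted p = 1.04e-06). EMG1, the methyltransferase that acts on a pseudouridine of 18S rRNA, had 792, 1201 and 947 normalized counts after MB1-47, against 2762, 2405 and 2861 after DMSO. The groups again lay apart, with a log2 fold change of -1.46 ± 0.15 (limma adjusted p = 2.65e-05). The other listed UTP-A genes ranged from -1.33 for UTP4 to -0.77 for WDR75, with HEATR1 at -0.997 and UTP15 at -0.84. In UTP-B, the fall was -1.22 for WDR3, -0.89 for UTP18 and -0.83 for TBL3 on the log2 scale.

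PWP2, the scaffold of UTP-B, had the most negative point estimate of the class and the widest error. It was listed at 94.9, 15.4 and 41.5 normalized counts after MB1-47, against 90.9, 199 and 128 after DMSO, and the groups overlapped. Its log2 fold change was -1.72 ± 0.58 (SE; limma adjusted p = 0.0386). Without the second MB1-47 library it was -1.06 (adjusted p = 0.109), and without the first it was -2.34. The call was also lost without the third MB1-47, the second DMSO or the third DMSO library (adjusted p = 0.0743, 0.138 and 0.0927 in that order), without an intensity trend (0.119) and with libraries scaled to the same total (0.0572). Of the 31-base words in its GENCODE 29 transcripts, 91.8% also occur in transcripts of other genes. One gene model on the same chromosome, FP565260.1 (chr21:5130871-5154734, minus strand, GRCh38), holds 6476 of these 6477 shared words, whereas PWP2 itself lies at chr21:44107290-44131181 on the plus strand. kallisto shares reads between such transcripts, so the split between the 2 symbols is uncertain. A further model, FP565260.2, shares under 10% of the words of PWP2 and was not added below. FP565260.1 was listed at 474, 722 and 632 normalized counts after MB1-47, against 1719, 1759 and 2073 after DMSO. The sum of both symbols was 569, 738 and 674 after MB1-47, against 1810.2, 1958 and 2201 after DMSO, with no overlap. The summed log2 fold change was -1.59 ± 0.14 (limma adjusted p = 7.11e-06), a value computed after the data had been seen.

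At the other end of the class stood 3 genes with small or uncertain differences. MPHOSPH10, the central protein of the MPP10 complex, had 1317, 1191 and 1083 normalized counts after MB1-47, against 1995, 1776 and 1887 after DMSO. It fell without overlap, by 0.66 on the log2 scale (SE 0.11; limma adjusted p = 0.000954), less than its partners IMP3 at -0.95 and IMP4 at -0.91. The difference between MPHOSPH10 and these partners was not tested. UTP3, the human counterpart of yeast Sas10, had 1299, 1657 and 1266 normalized counts after MB1-47, against 1732, 1738 and 1710.1 after DMSO. Its second MB1-47 library came close to the DMSO libraries, and its log2 fold change of -0.31 ± 0.12 missed the threshold (limma adjusted p = 0.0749); without that library it was -0.43 (adjusted p = 0.0146). NOC4L, which pairs with NOP14, had 84.4, 229 and 247 normalized counts after MB1-47, against 214, 291 and 445 after DMSO. The groups overlapped and the log2 fold change of -0.84 ± 0.40 was not called (limma adjusted p = 0.128). NOP14 itself fell by 1.30 on the log2 scale (SE 0.09; limma adjusted p = 1.61e-06).

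The remaining processome genes were RRP9, a protein of the U3 snoRNP, at -1.33, UTP20 at -1.30, DCAF13 at -0.89 and UTP14A at -0.67 on the log2 fold change scale. All 4 passed the test. UTP14A shares 13.4% of its 31-base words with other genes, chiefly ALG11 and UTP14C, and its value is uncertain. Summed with both, a step chosen after seeing the data, the log2 fold change was 0.0030 (limma adjusted p = 0.984); ALG11, a different gene, was listed at a mean of 3147 normalized counts after MB1-47 and 2425 after DMSO.

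The pre-40S factors carry the nearly finished small subunit out of the nucleolus and through its last cut. All 5 fell, with a median log2 fold change of -1.46, and the members differed widely among themselves. RRP12, a HEAT-repeat protein needed for export in yeast, had 705, 884 and 919 normalized counts after MB1-47, against 3087, 3374 and 3165 after DMSO. That is 26.1% of the DMSO mean, a log2 fold change of -1.95 ± 0.12 (limma adjusted p = 1.05e-06). TSR1, a GTPase-like protein that keeps the immature subunit from starting translation, had 1685, 2029 and 1516 normalized counts after MB1-47, against 4892, 5686 and 5662 after DMSO. BYSL, known in yeast as Enp1, had 649.5, 758 and 808 normalized counts after MB1-47, against 2079, 1972 and 2035 after DMSO. In both genes the groups lay far apart, with log2 fold changes of -1.64 ± 0.12 for TSR1 and -1.46 ± 0.12 for BYSL.

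LTV1, a protein released before the last steps, had 1424, 1197 and 1169 normalized counts after MB1-47, against 2736, 2321 and 2697 after DMSO. NOB1, the endonuclease that makes the 3′ end of 18S rRNA, had 813, 996 and 858 normalized counts after MB1-47, against 1454, 1337 and 1352 after DMSO. Neither gene showed overlap, and the log2 fold changes were -1.03 ± 0.12 for LTV1 and -0.64 ± 0.12 for NOB1, the smallest of the pre-40S factors (limma adjusted p = 0.00182 for NOB1). Both genes share part of their 31-base words with other transcripts, 32.1% for LTV1 and 17.8% for NOB1.

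The large-subunit factors act on the pre-60S particle, and the 3 lowest log2 fold changes of the whole list were theirs with each symbol taken by itself. All 19 fell, 16 of them with a log2 fold change of -1 or less, and the class median was -1.36. Together they made up 0.0989% ± 0.00276 of a library after MB1-47 and 0.214% ± 0.00386 after DMSO (SD, n = 3 each). MRTO4, which holds the place of the ribosomal stalk on the pre-60S particle, had 512, 749.5 and 733 normalized counts after MB1-47, against 3079.8, 2719.8 and 2858 after DMSO. It fell to 23.0% of the DMSO mean, with a log2 fold change of -2.14 ± 0.15 (limma adjusted p = 2.04e-06). NOP16, a nucleolar pre-60S protein, had 151, 177 and 207 normalized counts after MB1-47, against 821, 705 and 731 after DMSO. Its groups did not overlap, and its log2 fold change was -2.08 ± 0.18 (limma adjusted p = 9.33e-06).

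PPAN, a Brix-domain protein known in yeast as Ssf1, had 164, 167 and 173 normalized counts after MB1-47, against 666, 599.7 and 929 after DMSO. The MB1-47 libraries were almost equal and all low, and the log2 fold change was -2.09 ± 0.20 (limma adjusted p = 1.68e-05). A read-through model with its neighbour, PPAN-P2RY11, holds 53.9% of its 31-base words and was listed at 18.6, 47.5 and 159 after MB1-47, against 0, 152.5 and 50.3 after DMSO. Summed over both, the log2 fold change was -1.74 ± 0.24 (limma adjusted p = 0.000195), which is above MYBBP1A at -2.00 and RRP12 at -1.95. NOP2, the methyltransferase of 28S rRNA, shares 51.2% of its words with the read-through model AC006064.6. It was at -1.09 ± 0.10 by itself and at -1.15 ± 0.10 as a sum of both.

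Every step of large-subunit assembly that the list covers was lower. PES1, BOP1 and WDR12 form the PeBoW complex, and their log2 fold changes lay close to each other at -1.31, -1.38 and -1.25. The 4 listed Brix-domain and 5S RNP factors PPAN, BRIX1, RPF2 and RRS1 had a median of -1.63. RRS1 was at -1.72, BRIX1 at -1.54 and RPF2 at -1.36. RPF1, a Brix-domain gene outside the list, was at -0.17 ± 0.10 (SE) and was not called (limma adjusted p = 0.229). Of the nucleolar GTPases, GTPBP4 was at -1.36, GNL3 (nucleostemin) at -1.14 and GNL2 at -0.80 on the log2 fold change scale. EBNA1BP2 was at -1.80, RRP1 at -1.46, NIP7 at -1.24 and RRP1B at -0.98. Each of these genes except RPF1 passed the test and had no overlap between groups.

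The smallest differences among large-subunit factors were those of NOC3L and GNL2. NOC3L, one of the NOC proteins that accompany early pre-60S particles, had 883, 697 and 919.9 normalized counts after MB1-47, against 1361.5, 1288 and 1312 after DMSO. GNL2, a GTPase of the pre-60S particle, had 979, 1109.6 and 1057 normalized counts after MB1-47, against 1732, 1784 and 1969.9 after DMSO. Both fell without overlap, with log2 fold changes of -0.67 ± 0.13 for NOC3L and -0.80 ± 0.11 for GNL2 (limma adjusted p = 0.00232 for NOC3L and 0.000214 for GNL2).

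The snoRNP proteins are the constant parts of the particles that each carry a different guide RNA. All 8 fell, with a median log2 fold change of -0.96, and 3 genes lay at -1.62 or lower while the other 5 lay at -0.67 to -0.98. NOLC1, the chaperone that binds both kinds of particle, had 2752, 3111 and 2833 normalized counts after MB1-47, against 9204, 9705 and 10114 after DMSO. DKC1, the pseudouridine synthase dyskerin, had 2419, 2649 and 2166 normalized counts after MB1-47, against 7503, 7019 and 7812 after DMSO. NOP56, a core protein of box C/D particles, had 3345, 3437 and 3162 normalized counts after MB1-47, against 9632, 9722 and 11359 after DMSO. In these 3 genes the MB1-47 libraries stood far below the DMSO libraries, and the log2 fold changes were -1.74 ± 0.09 for NOLC1, -1.63 ± 0.10 for DKC1 and -1.62 ± 0.09 for NOP56. The adjusted p-values of limma were 3.70e-07 for NOLC1, 8.60e-07 for DKC1 and 6.23e-07 for NOP56.

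The partners of dyskerin in the box H/ACA core differed less. NOP10 had 455, 516 and 508 normalized counts after MB1-47, against 799, 736 and 819 after DMSO. GAR1 had 651, 702 and 799 normalized counts after MB1-47, against 1098, 1195 and 1322 after DMSO. Both fell without overlap, with log2 fold changes of -0.67 ± 0.14 for NOP10 and -0.75 ± 0.13 for GAR1. NHP2 was at -0.98 ± 0.18. In the box C/D core, FBL (fibrillarin, the methyltransferase) was at -0.93 ± 0.19 and NOP58 at -0.85 ± 0.10, and both passed the test.

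NOP56 and NOP58 are paralogs that sit side by side in one particle, so their ratio was formed within each library. The log2 ratio of NOP56 to NOP58 was 0.23, 0.23 and -0.12 after MB1-47, against 0.73, 0.86 and 1.07 after DMSO. All 3 MB1-47 ratios were below all DMSO ratios, and the difference was -0.78 (exact two-sided permutation p = 0.1, the smallest that 3 against 3 libraries allow; 0.15 after adjustment over the 3 ratios formed). The log2 ratio of NOC2L to NOC3L was 1.17, 1.73 and 1.27 after MB1-47, against 1.74, 1.74 and 1.81 after DMSO, a difference of -0.38 (exact permutation p = 0.1, adjusted 0.15). For RRP1 over RRP1B the log2 ratio was -2.52, -2.06 and -1.87 after MB1-47, against -1.47, -1.60 and -1.93 after DMSO. Those groups overlapped, and the difference was -0.48 (exact permutation p = 0.2, adjusted 0.2).

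The 3 multifunctional nucleolar proteins act at several steps and outside ribosome assembly as well, and all 3 fell. MYBBP1A, a nucleolar protein that binds MYB and takes part in rRNA processing, had 1452, 1671 and 1629 normalized counts after MB1-47, against 5659, 6052 and 7378 after DMSO. Every MB1-47 library was under every DMSO library, and the log2 fold change was -2.00 ± 0.11 (limma adjusted p = 7.10e-07). NCL, nucleolin, had 21583, 23119 and 23059 normalized counts after MB1-47, against 55008, 57756 and 59409 after DMSO. NPM1, nucleophosmin, had 32123, 31851 and 34549 normalized counts after MB1-47, against 64074.5, 53318 and 61073 after DMSO. Both fell without overlap, with log2 fold changes of -1.35 ± 0.07 for NCL and -0.85 ± 0.08 for NPM1. NPM1 shares 23.3% of its 31-base words with other transcripts, mostly pseudogenes.

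**Figure D2:**
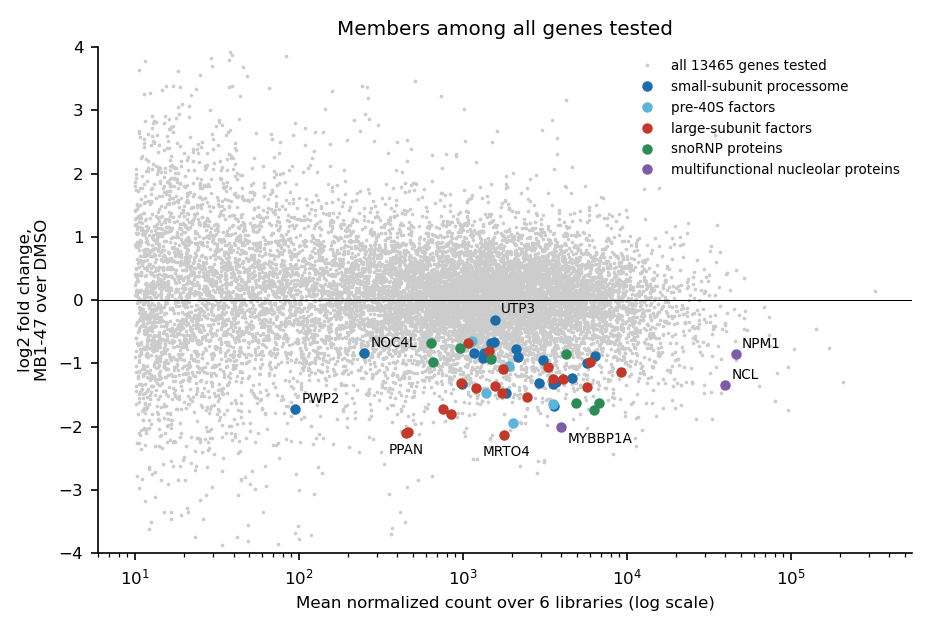
Mean normalized count over the 6 libraries (x axis, log scale) against the log2 fold change of MB1-47 over DMSO (y axis) for all 13465 genes tested (grey) and the 55 members (coloured by role). The members sit below 0 at low and high levels alike, and 24 genes beyond a log2 fold change of 4 in either direction are not drawn.

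Set side by side, the processome and the large-subunit factors differed in their medians after MB1-47. The deviation of each gene from its DMSO mean was taken in every library, and the class median was formed. This centring holds the DMSO libraries close together by construction, so their range is no independent baseline. For the small-subunit processome it was -1.03, -1.07 and -0.85 in the MB1-47 libraries, and between -0.02 and 0.03 in the DMSO libraries. For the large-subunit factors it was -1.44, -1.28 and -1.22 in the MB1-47 libraries, and between -0.04 and 0.03 in the DMSO libraries. The processome median was thus above the large-subunit median in each MB1-47 library, by 0.41, 0.21 and 0.37, against differences between -0.02 and 0.01 in the DMSO libraries. Over the fitted changes, the class median was 0.43 higher in the processome. It was 0.31 higher without the first MB1-47 library, and 0.37 higher when the pre-40S factors were counted with the processome. The classes were chosen with results of these data known, so this difference is a description and was not tested. It holds for the listed genes only. Among further genes outside the list the order was the other way. The median log2 fold change was -0.76 for 24 processome genes and -0.63 for 39 large-subunit factors.

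The snoRNP proteins were less even between libraries. Their median deviation was -1.35, -0.84 and -0.84 in the MB1-47 libraries, and between -0.07 and 0.10 in the DMSO libraries. Relative to the processome they were at -0.32, 0.23 and 0.01 in the MB1-47 libraries, so the order of these classes was not the same in every library. Relative to the large-subunit factors they were higher in each MB1-47 library, by 0.10, 0.43 and 0.38, against -0.08, -0.03 and 0.07 in the DMSO libraries. The value of the first MB1-47 library was thus little beyond the DMSO range. The pre-40S factors were the lowest class in each MB1-47 library, at -1.64, -1.41 and -1.33, and between -0.04 and 0.04 in the DMSO libraries. In the third MB1-47 library the multifunctional proteins were close to them, at -1.31. This class holds 5 chosen genes, and 8 further pre-40S genes outside the list had a median log2 fold change of -0.38.

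**Figure D3:**
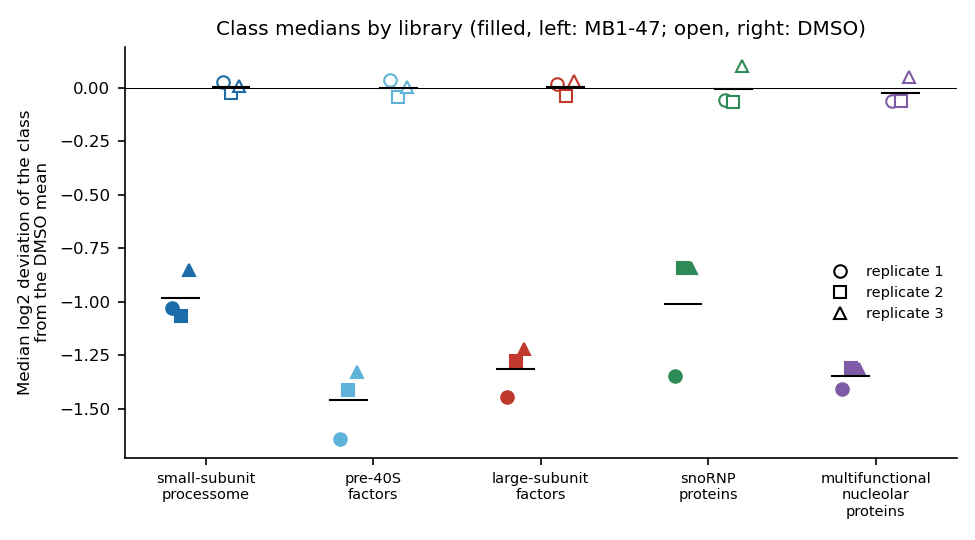
Median log2 deviation from the DMSO mean (y axis) of the genes of each class (x axis), 1 point per library, with MB1-47 filled and left, DMSO open and right, and a line at the mean of the 3 libraries. All MB1-47 points lie at -0.84 or lower, and the DMSO points lie between -0.07 and 0.10.

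A sequence that the choice of genes did not use was more frequent in the promoters of these genes than in those of all tested coding genes. The E-box with the letters CACGTG, which reads the same on both strands, is the site bound by MYC and related factors. RefSeq entries of 250 bases before to 50 bases after a gene start (GRCh38.p14) were at hand for 46 of the 55 genes, and 22 of these 46 (47.8%) held the motif. Among the 9733 tested protein-coding genes with an entry, 1221 (12.5%) held it. The share was 9 of 18 in the processome, 2 of 4 among pre-40S factors, 7 of 15 among large-subunit factors, 3 of 6 among snoRNP proteins and 1 of 3 among multifunctional proteins. In each class, up to 3 genes with the motif were taken by lowest log2 fold change. EBNA1BP2 and NOP10 were also among these genes but are left out here. Windows of 30 bases around the motif are shown for the others, with the motif in capitals:
PWP2: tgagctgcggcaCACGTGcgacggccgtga
WDR43: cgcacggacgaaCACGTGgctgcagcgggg
RRP9: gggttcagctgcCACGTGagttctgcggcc
BYSL: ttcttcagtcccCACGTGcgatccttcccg
LTV1: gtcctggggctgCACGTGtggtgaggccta
MRTO4: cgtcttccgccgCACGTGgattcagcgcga
PES1: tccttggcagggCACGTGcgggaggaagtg
FBL: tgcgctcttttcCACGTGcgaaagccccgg
GAR1: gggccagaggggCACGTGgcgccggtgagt
MYBBP1A: ggggccggagcaCACGTGtttcgtgtttcg

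On GRCh38.p14 these windows lie at chr21:44107388-44107417 (plus strand) for PWP2, chr2:28894658-28894687 (plus) for WDR43 and chr3:51941892-51941921 (minus) for RRP9. For the pre-40S factors they lie at chr6:41921515-41921544 (plus) for BYSL and chr6:143843354-143843383 (plus) for LTV1. For the large-subunit factors they lie at chr1:19251807-19251836 (plus) for MRTO4 and chr22:30591880-30591909 (minus) for PES1. The others are chr19:39846356-39846385 (minus) for FBL, chr4:109815781-109815810 (plus) for GAR1 and chr17:4555340-4555369 (minus) for MYBBP1A. Gene start here means that of the RefSeq entry, which can differ from the outer GENCODE 29 bound, as in PWP2 (44107290 in GENCODE). Counted from the RefSeq start as base 1, the motif begins at base 2 in PWP2, 4 in WDR43, 7 in FBL, 14 in PES1 and 15 in MRTO4. It begins at base 28 in MYBBP1A, 29 in both BYSL and LTV1, 32 in GAR1 and at -5 in RRP9. The bases around the motif differ between these genes. In each gene the match nearest the start that left room for a full window was taken. Closeness to the start partly follows from that choice, and from leaving out EBNA1BP2, whose window was around its match at -237. Matches further away included EBNA1BP2 at -237 (also at 43), NOP10 at -170 (also at -11) and UTP14A at -241 only.

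In UTP20, the motif begins 10 bases before the start, near the end of a stretch of 100 bases upstream (chr12:101280005-101280104, plus strand), with the motif in capitals:
UTP20: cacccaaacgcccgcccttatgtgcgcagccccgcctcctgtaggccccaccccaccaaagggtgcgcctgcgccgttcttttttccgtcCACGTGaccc

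The motif was found most often just after the start. In the first 50 bases after it, 17 of the 46 genes (37.0%) held it, against 151 of the tested coding genes (1.55%). In the 50 bases before the start the counts were 4 of the 46 (8.70%), against 394 of the coding genes (4.05%). Within the list, the median log2 fold change was -1.22 for the 22 genes with the motif and -1.23 for the 24 genes without it. All 22 genes with the motif and 22 of those without it were called lower, and the difference between these sets was not tested. Among coding genes outside the list, the motif was present in 16.2% of those called lower, 12% of those called higher and 11.1% of those not called. A match describes the letters in this window and is not evidence of binding.

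**Figure D4:**
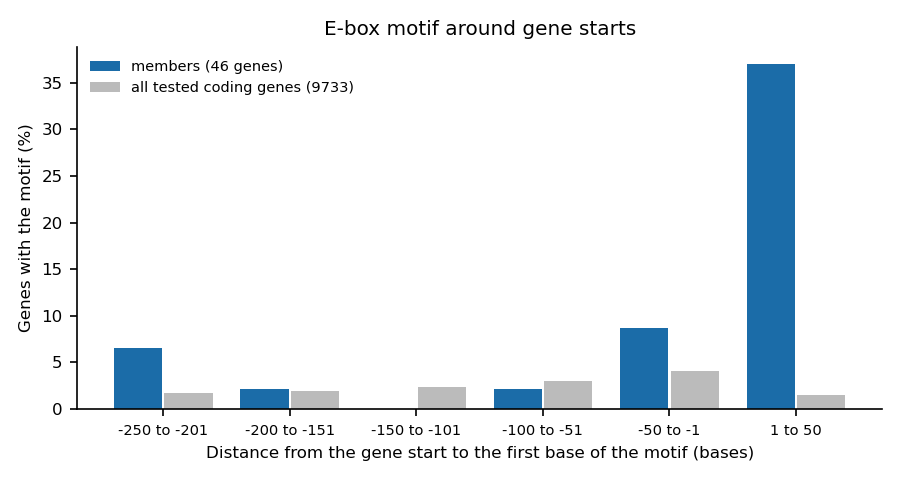
Share of genes whose promoter entry holds the E-box (y axis, %) by the distance of its first base from the gene start (x axis, bins of 50 bases), for the 46 genes of the list (blue) and the 9733 tested coding genes with an entry (grey). The bin of bases 1 to 50 holds 37.0% of the listed genes and 1.55% of the coding genes, and the other bins hold at most 8.70% of the listed genes.

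Several of these genes also carry snoRNA genes within their own bounds, which is how many human snoRNAs are made. In GENCODE 29 this was so for 8 of the 55 genes (14.5%), against 225 of 12358 tested protein-coding genes (1.82%). The hosts were GNL3 with 6 snoRNA genes, NOP56 with 5, NOP58 with 4, WDR43 and NCL with 3 each, and DKC1, PPAN and TSR1 with 2 each. All 8 hosts fell, with a median log2 fold change of -1.63 and a range of -2.09 to -0.85. The other 47 genes had a median of -1.09 and a range of -2.14 to -0.31, with 45 of them called lower. The ranges overlapped, and the difference between these sets was not tested. The snoRNAs themselves were not analysed here.

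Other genes of ribosome biogenesis, outside the 55, were less uniform. Of 24 further processome genes, 22 fell and none rose, with a median log2 fold change of -0.76. RRP7A had a mean of 1688 ± 165 normalized counts after MB1-47 and 4982 ± 295 after DMSO (SD, n = 3 each), a log2 fold change of -1.56 ± 0.10. NAT10, the acetyltransferase of 18S rRNA, was at -1.28 ± 0.09, and ESF1 was at -1.26 ± 0.09. Of 39 further large-subunit factors, 26 fell, 2 rose and 11 were not called, with a median of -0.63. WDR74 at -1.43, URB2 at -1.36 and PAK1IP1 at -1.34 were the lowest on the log2 fold change scale.

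The large-subunit factors that rose were NOP53 and NMD3. NOP53, known in yeast to bring the exosome to the pre-60S particle, had 3013, 3413 and 3570.2 normalized counts after MB1-47, against 1398, 1557.5 and 1560.5 after DMSO. Every MB1-47 library was above every DMSO library, and the log2 fold change was 1.14 ± 0.10 (limma adjusted p = 1.19e-05). NMD3, the adapter for export of the 60S subunit, had 7323, 7578 and 8405 normalized counts after MB1-47, against 5992, 5394 and 6092 after DMSO. It rose without overlap, with a log2 fold change of 0.41 ± 0.09 (limma adjusted p = 0.00342).

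Of 8 genes outside the list that were counted as late small-subunit factors and tested, 2 fell, 1 rose and 5 were not called, with a median of -0.38. These counts are near the shares of all genes tested, 19.8% lower and 18.3% higher, and say nothing about the list as such. NOL12 (-0.40, not called) was counted here and NOP9 (-0.13, not called) among the large-subunit factors, although each can be assigned to the other subunit. PNO1, the partner of NOB1, fell with a log2 fold change of -1.45 ± 0.17 (limma adjusted p = 7.46e-05). The kinase RIOK2 had a log2 fold change of -0.36 ± 0.10 (limma adjusted p = 0.0191), and its call was lost without the third MB1-47 library (adjusted p = 0.0531) or the third DMSO library (adjusted p = 0.088), without an intensity trend (0.0524) and with libraries scaled to the same total (0.0915). RIOK3, a kinase of the same family, had 3791, 3372 and 4073 normalized counts after MB1-47, against 2907, 2347 and 2505 after DMSO. It rose without overlap, with a log2 fold change of 0.54 ± 0.11 (limma adjusted p = 0.00291).

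The machinery upstream and beside these steps also held more genes that fell than rose. Of 11 snoRNP assembly genes, 7 fell and none rose, with a median of -0.50. The lowest were SHQ1, the chaperone of dyskerin, at -1.49 ± 0.10, RUVBL1 at -1.25 ± 0.11 and TCOF1 at -1.14 ± 0.11 on the log2 fold change scale. Of 14 genes of the RNA exosome and its cofactors, 9 fell and none rose, with a median of -0.50. The lowest were EXOSC2 at -1.26, MPHOSPH6 at -1.25 and EXOSC5 at -1.17. Of 15 RNA polymerase I genes, 8 fell and none rose, with a median of -0.44, and 7 were not called. POLR1B, with a mean of 1303 ± 60.9 normalized counts after MB1-47 and 3498 ± 272 after DMSO, was at -1.42 ± 0.10. POLR1A was at -1.30 ± 0.14 and POLR1C at -0.95 ± 0.11. The medians of these lists lay between that of the 55 genes and that of all genes tested, and the difference between lists was not tested.

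**Figure D5:**
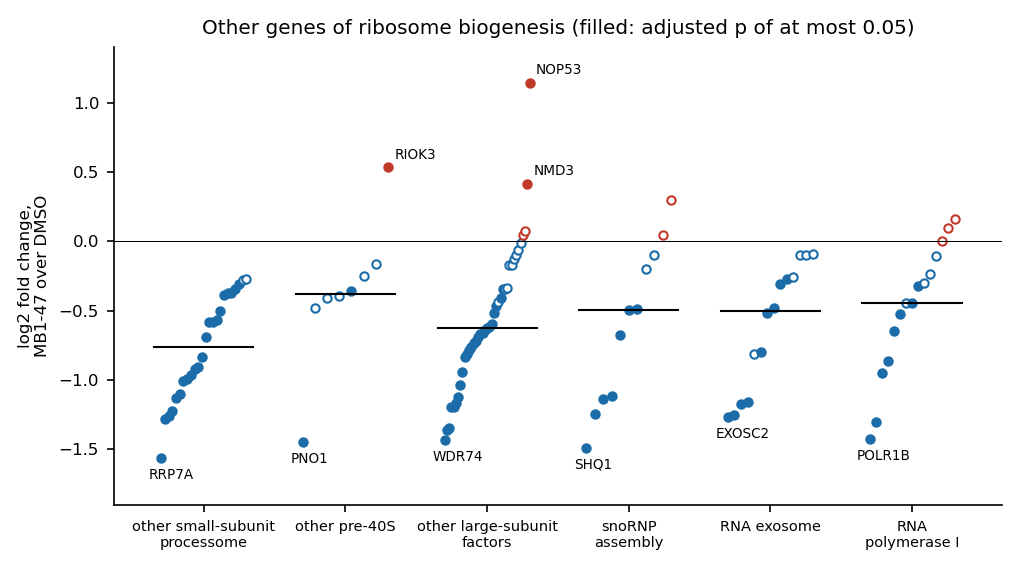
Log2 fold change of MB1-47 over DMSO (y axis) for each gene of 6 further lists of ribosome biogenesis (x axis), with a line at the median of each list. Filled points passed the test, blue points are below 0 and red points above it, and NOP53, NMD3 and RIOK3 are the filled points above 0.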

How the data were processed

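The authors deposited a table of normalized counts, per the labels, with 1 value for each gene symbol in each library. They were treated here as a signal at or above 0. kallisto 0.44.0, DESeq and the build GRCh38.p13 are named in the submitters' processing notes. How transcripts were summed to genes, with which annotation and filter, is not given in the sources used here. The values are not whole reads, so depth is unknown and no counting interval is given. kallisto splits reads that match several transcripts, which makes genes with near copies uncertain; shared words of 31 bases were counted in GENCODE 29 transcripts.

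Libraries were grouped by the treatment in the labels, 3 a group. Values were tested as log2(value + 1) with limma 3.58.1 and an intensity trend in R 4.3.3, for genes whose mean reached 10, and p-values were adjusted by Benjamini-Hochberg over 13465 genes at a threshold of 0.05. A fold change on this scale understates the change of low genes. The procedure was tested on simulated data. Classes were described by counts and medians. Ratios of paralogs or partners were compared by an exact permutation test.

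The members, classes and further lists were chosen with earlier results of these data known. Values in every library are given for the 3 largest and 2 smallest changes in each of the 3 main classes, every pre-40S factor, MYBBP1A, NCL and NPM1, and members not called. From each further list, up to 3 called genes are named, by size of change among means of 50 or more, as is every called gene against the direction of most of its list. WDR36, UTP6, NOL11, RPF1, NOL12 and NOP9 are named outside this rule, because of the subcomplex, family or subunit they belong to. Alternatives were pseudocounts of 0.5 and 5, other filters, 3 other scalings, no trend, a replicate block, leaving out each library and, chosen after seeing the data, sums of near copies and other settings for the ratios. Of the further pre-40S genes, RBIS was not analysed here. Promoters were those of RefSeq (GRCh38.p14); 44 of 52 entries of the members had their first transcribed bases in a GENCODE 29 transcript of the gene, and NOP58, NOLC1, MPHOSPH10, DCAF13, RRP12, BOP1, RPF2, RRS1 and RRP1B had no entry. The level of 1 cell type marker is not reported here.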

Additional observations from a re-analysis of the deposited data

How the results depend on the processing

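In the 17 alternatives run for the whole list, 52 or 53 of the 55 genes were called lower and 0 higher. Of 935 single values, 925 kept their direction and their side of the threshold, 7 lost the call, 2 gained it and 1 changed sign. All 7 lost calls were those of PWP2, whose adjusted p was 0.0572 with libraries scaled to the same total, 0.119 without the trend and 0.0596 with a replicate block. Without single libraries its lost calls had an adjusted p of 0.0743 (MB1-47 replicate 3), 0.109 (MB1-47 replicate 2), 0.138 (DMSO replicate 2) and 0.0927 (DMSO replicate 3). UTP3 was called without the second MB1-47 library (-0.43, adjusted p = 0.0146). Summing with genes that hold at least 10% of a gene's 31-base words, chosen after seeing the data, adds ALG11, a different gene, to UTP14A and turns its log2 fold change to 0.0030 (adjusted p = 0.984); at 50% no member lost its call.

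Scaling libraries to the same total moved the median of all genes from 0.02 to 0.15 and the split of calls to 3335 higher and 2063 lower, against 2458 higher and 2667 lower as deposited. Class medians were then -0.80 for the processome, -1.33 for pre-40S, -1.23 for large-subunit and -1.22 for multifunctional genes, and the last was -1.08 after quantile normalization. Leaving out 1 library gave processome medians of -1.04 to -0.93, large-subunit medians of -1.39 to -1.27 and a difference between them of 0.31 to 0.46. The snoRNP median ranged from -1.09 to -0.79, and its difference from the processome from -0.16 to 0.17, so its order changed. With the same total, 1 further gene of RNA polymerase I and 1 of snoRNP assembly were called higher. The count of further pre-40S genes called lower was 1 with the same total, without the trend, and without the third library of either group, and 3 without the first DMSO library. Ratios kept their sign, at -0.62 to -0.30 for RRP1 to RRP1B, -0.86 to -0.66 for NOP56 to NOP58 and -0.55 to -0.26 for NOC2L to NOC3L without 1 library. Over all genes 4172 to 5398 were called.

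No clear pairing of libraries by replicate number was seen. Deviations of same-numbered libraries correlated at 0.0224, 0.0566 and 0.00724. Of the libraries, 2 from MB1-47 and 1 from DMSO correlated best with the library of their own number. With 3 libraries a group, this check cannot exclude pairing. With the number as a replicate block, 5246 genes were called in all, 53 of the 55 genes were lower, and NOC4L was called (adjusted p = 0.0295). Depth was unknown, and 3 libraries a group limit the precision of low genes such as PWP2 and NOC4L.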
